A study of Mus musculus with 18 samples.

Results

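Mir31 is the gene of the microRNA miR-31, and it was followed here through 18 bulk RNA-seq libraries of mouse forestomach. Its entry was found by its symbol and is 1 of 28934 entries of the expression table that carry a reference gene, out of 57234 entries in all. It was chosen from the readout, since its level over the 4 groups and its relation to stress keratin and Sprr genes were already known, so its own levels are given as a description with no test. Values are FPKM, that is, fragments per kilobase of transcript scaled to library depth.

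MicroRNAs are cut from a long primary transcript in steps: Drosha frees a hairpin in the nucleus, Dicer trims it to a short duplex, and 1 strand is loaded into an Argonaute protein. The loaded strand pairs with messenger RNAs, mainly through its seed, bases 2 to 8, and lowers their stability or translation. miR-31 is known as a microRNA of stratified squamous epithelium that rises in wounded, psoriatic and cancerous keratinocytes, esophageal squamous carcinoma among them, and it is commonly called oncogenic there. In skin its best known direct targets include Stk40, Ppp6c, Rasa1, Lats2 and Dlx3.

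The Mir31 hairpin (Ensembl gene ENSMUSG00000065408) lies on the minus strand of chromosome 4, at chr4:88910557-88910662 of GRCm38. In the GENCODE annotation it falls within exon 3 (chr4:88909855-88910710) of the long noncoding host AL805899.1, whose 3 exons span chr4:88909855-88938521. The sequences are shown because they define what the gene encodes and which letters a target must hold. They come from RefSeq (GRCm38.p6), all from the minus strand, with both mature arms in capitals in the hairpin and the seed in capitals in each mature strand.
Mir31 hairpin: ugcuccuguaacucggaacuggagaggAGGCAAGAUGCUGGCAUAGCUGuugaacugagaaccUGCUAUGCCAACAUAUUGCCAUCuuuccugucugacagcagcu
mmu-miR-31-5p: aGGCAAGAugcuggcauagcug
mmu-miR-31-3p: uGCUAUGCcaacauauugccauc
Of 1738 mature mouse microRNAs in the reference table, 1 carried the miR-31-5p seed and 1 the miR-31-3p seed, in each case the strand itself. miR-31-5p spans chr4:88910614-88910635 and miR-31-3p spans chr4:88910577-88910599.

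The entry did not measure these short strands. It is an assembled gene model named for Mir31. The smallest length that turned its FPKM into whole reads in all 18 libraries was 965 bases, against 106 bases for the hairpin. Multiples of that length fit as well, so the model may be longer, and the read counts given for it are the smallest that fit. The table gives no position for the model, so how much of the host it covers is not known. The kit named in the labels is not stated to keep strand, so reads from the opposite strand cannot be told apart.

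All mice were male C57BL/6, and their age was not given in the labels. WT mice and mice with a germline CCR2 deletion (CCR2-/-, the Ccr2tm1Ifc/J allele, which removes the gene from every cell and not from 1 lineage) received either 1% carboxymethyl cellulose (control) or N-nitrosomethylbenzylamine (NMBA, an esophageal carcinogen) at 0.25 mg/kg, by gavage 2 times per week for 5 weeks. Forestomachs were taken at the end of week 25. The paper describes the RNA-sequencing as done on tumors of the CCR2-/- mouse model. Tumor content of the NMBA libraries therefore cannot be told apart from the treatment. The groups held 3 WT control, 6 WT NMBA, 3 CCR2-/- control and 6 CCR2-/- NMBA libraries. The labels call the cell type esophageal cancer in every library, controls included. The titles carry 1 code letter for NMBA replicates 1 to 3 and another for 4 to 6 in each genotype. Each control group has a letter of its own, and no letter is shared between groups. What the letters stand for was not given, so they cannot be told apart from treatment or genotype.

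The libraries held about 18300000 to 25300000 fragments, as far as the spacing of their low FPKM values shows. Ccr2 checked the genotype labels, with 1.3 to 3.43 FPKM in the 9 WT libraries and at most 0.0798 FPKM in the 9 CCR2-/- libraries. The squamous markers Krt5, Krt4, Krt13 and Trp63 were above 0 in every library, as were all 8 glandular stomach markers measured, whose summed level ran from 4436 to 63872 FPKM, although forestomach epithelium is squamous. In bulk tissue, fewer cells of a type and less RNA per cell cannot be told apart.

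Mir31 stood at 2.91 FPKM or above in 16 libraries and was close to 0 in the other 2, both of them CCR2-/- controls. NMBA libraries stood above all control libraries in both genotypes, and the levels of both genotypes overlapped under NMBA. A lack of overlap with controls, in either direction, held for 6.46% of all genes tested in WT and 6.37% in CCR2-/- tissue. Averaged over all 18 libraries, the entry had 7.89 FPKM, higher than 66.7% of the 14765 genes that passed the filter on low values (at least 0.5 FPKM in 3 or more libraries).

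In WT controls, Mir31 had 3.08, 3.73 and 2.91 FPKM in replicates 1 to 3, from 110, 155 and 120 reads. In WT NMBA libraries it ran from 7.94 to 15.6 FPKM with a median of 10 FPKM, from 298 to 572 reads. These groups did not overlap, since the lowest WT NMBA library (replicate 5) lay above the highest WT control (replicate 2). WT controls averaged 3.24 ± 0.43 FPKM (SD, n = 3). WT NMBA libraries averaged 10.6 ± 2.85 FPKM (SD, n = 6), a ratio of 3.27. On the log2(FPKM + 1) scale the difference was 1.42 (SE 0.39). Summed muscle markers stood beside it at 4712 to 6534 FPKM in WT controls and 1914 to 4238 FPKM under NMBA (5 of 5 genes measured, none at 0). Summed squamous markers (4 of 7, none at 0) had 11208 to 11877 FPKM and 8324 to 10412 FPKM. These squamous markers did not move together, with log2 differences of -0.84 for Krt4, -0.03 for Krt13, 0.09 for Trp63 and 0.99 for Krt5. Summed T-cell markers (4 of 4, none at 0) had 0.727 to 1.75 FPKM and 2.07 to 5.53 FPKM. The part of these markers in the Mir31 difference was not tested.

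In CCR2-/- controls, Mir31 had 0.0249 FPKM in replicate 1, 0.0205 FPKM in replicate 2 and 3.46 FPKM in replicate 3. With a model of 965 bases, these values rest on 1, 1 and 129 reads, the smallest counts that fit. The 3-read level and the intervals below rest on that length too. Replicates 1 and 2 were below the 3-read level of 0.0747 and 0.0614 FPKM, whereas replicate 3 lay within the range of the WT controls and at 1.07 times their mean. Replicate 3 exceeded replicate 1 by a ratio of 139 (95% counting interval 24.5 to 5535) and replicate 2 by a ratio of 169 (29.8 to 6732). A read is here the smallest step found in the table's values. The intervals cover counting error only, and they are too narrow if both reads of a pair were counted.

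In CCR2-/- NMBA libraries, Mir31 ran from 5.99 to 17.6 FPKM with a median of 10.3 FPKM, from 258 to 691 reads. All 6 lay above all 3 CCR2-/- controls. The mean was 1.17 ± 1.99 FPKM (SD, n = 3) in controls, a figure that describes none of the 3 libraries, and 10.9 ± 4.42 FPKM (SD, n = 6) under NMBA. Summed neutrophil markers (4 of 5, of which 2 were at 0 in some libraries) had 3.43 to 4.86 FPKM in CCR2-/- controls and 5.34 to 10.6 FPKM under NMBA, and their part in the difference was not tested. The ratio of the Mir31 means was 9.31, and it was 3.14 against control replicate 3 alone, close to the WT ratio.

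By mean level the order was CCR2-/- NMBA, WT NMBA, WT control and CCR2-/- control. The first pair differed by less than their spread (ratio 1.03, log2 difference -0.01, SE 0.32). The last pair overlapped as well, since CCR2-/- control replicate 3 was above 2 of the 3 WT controls. The gap between the NMBA groups and the control groups was larger than the SD within any group.

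**Figure D1:**
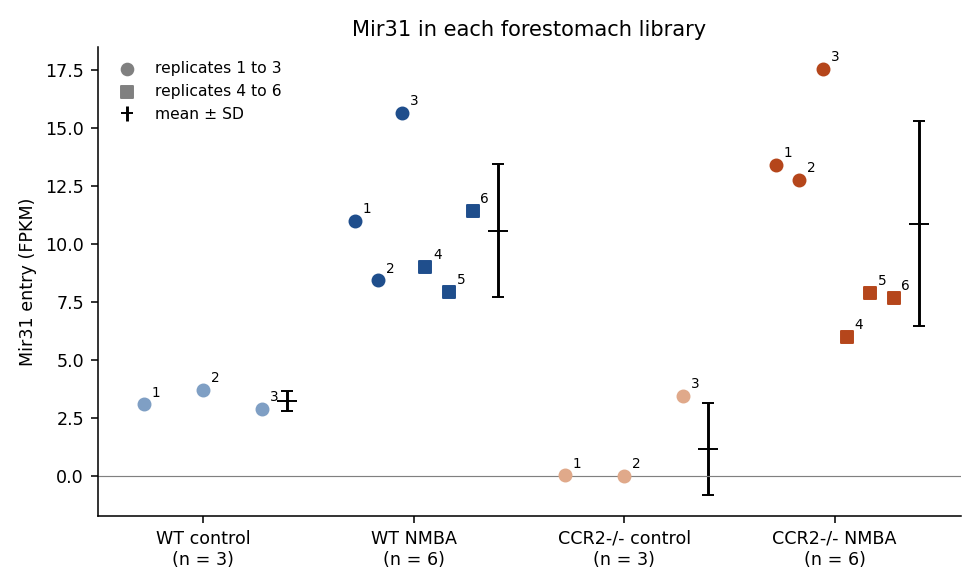
Mir31 level (FPKM, y axis) in each of the 18 libraries by group, with replicate numbers beside the points, circles for replicates 1 to 3, squares for replicates 4 to 6, and bars for the group mean ± SD. All 12 NMBA libraries lie at 5.99 FPKM or above, 4 controls lie between 2.91 and 3.73 FPKM, and CCR2-/- controls 1 and 2 lie at 0.0249 and 0.0205 FPKM.

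Of all reference entries, Mir31 was the 1 entry with at least 1 FPKM in the other 16 libraries and under 0.1 FPKM in CCR2-/- controls 1 and 2. The libraries and cut-offs were set with the values of Mir31 known, so it had to pass and this is a description only. Other cut-offs and other pairs of libraries were not examined. These 2 libraries were not shallow, at about 20800000 and 25300000 fragments. Their summed squamous markers (4 of 7 genes measured, none at 0) were 10827 and 9779 FPKM against 10667 FPKM in control replicate 3. Their summed glandular markers (8 of 9 genes, none at 0) were 25927 and 42387 FPKM against 29226 FPKM. An unnamed assembled model that precedes Mir31 in the table's numbering held 30 and 24 reads in these libraries against 32 reads in replicate 3. Over all libraries it had 0.0891 to 0.124 FPKM in WT controls and 0.143 to 0.593 FPKM in WT NMBA libraries, and 0.12 to 0.21 FPKM in CCR2-/- controls and 0.239 to 0.797 FPKM in CCR2-/- NMBA libraries. Like Mir31, it was thus higher under NMBA with no overlap in either genotype. No overlap was found for 6.46% of all genes in WT and 6.37% in CCR2-/- tissue. In this model, CCR2-/- NMBA replicates 1 to 3 (0.482 to 0.797 FPKM) lay above 4 to 6 (0.239 to 0.389 FPKM). The unnamed model that follows Mir31 held 5 and 24 reads in CCR2-/- controls 1 and 2 against 22 reads in replicate 3. Its NMBA and control libraries overlapped in both genotypes. It had 0.0852 to 0.243 FPKM in WT controls and 0.117 to 0.526 FPKM in WT NMBA libraries. In CCR2-/- controls it had 0.0315 to 0.149 FPKM. Unlike Mir31, its CCR2-/- NMBA replicates 1 to 3 (0.137 to 0.202 FPKM) lay below 4 to 6 (0.294 to 0.564 FPKM). The table gives no positions for these models. A cause for the missing reads was not tested.

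The genotype comparisons that involve controls turned on these 2 libraries. With all libraries, Mir31 was lower in CCR2-/- than in WT controls by -1.34 (SE 0.45) on the log2 scale. The NMBA difference was 2.75 (SE 0.39) in CCR2-/- tissue, larger than the WT difference by 1.33 (SE 0.55). Without both libraries, an alternative chosen after seeing the data, the control difference was 0.08 (SE 0.44), the NMBA difference in CCR2-/- tissue was 1.33 (SE 0.41) and the difference of the responses was -0.09 (SE 0.49). The CCR2-/- control group is then 1 library, and these SEs assume that it varies as the other groups do. The higher level under NMBA in WT and the near-equal means of both NMBA groups do not involve these libraries, and they stood at 1.42 and -0.01 in either fit.

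**Figure D2:**
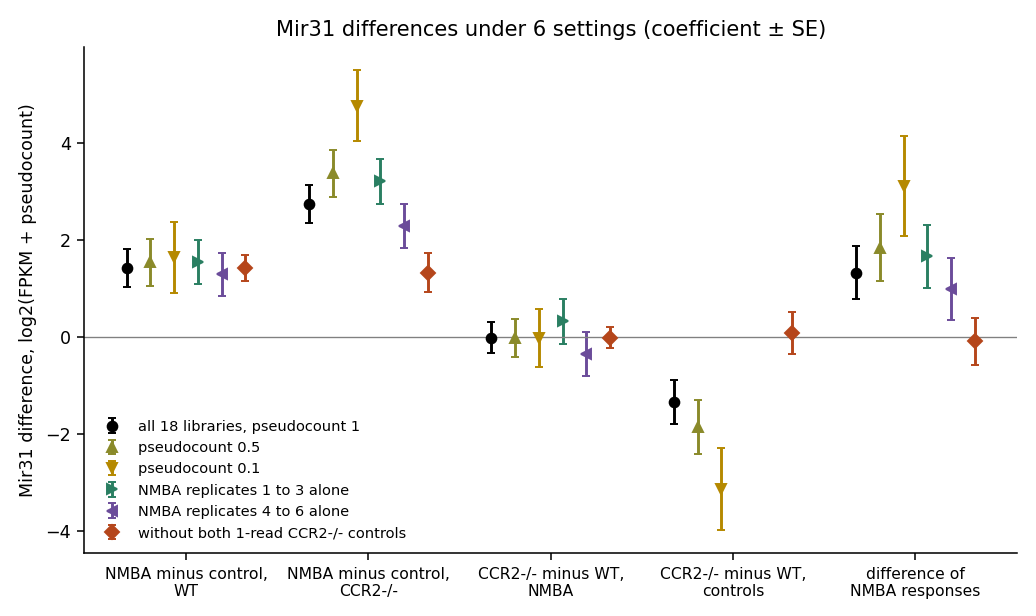
Mir31 differences (limma coefficient ± SE on the log2(FPKM + pseudocount) scale, y axis) for the 5 contrasts on the x axis, under 6 settings marked by colour and symbol. The WT response stays between 1.30 and 1.65, whereas the CCR2-/- response runs from 1.33 without the 2 near-zero controls to 4.77 at a pseudocount of 0.1.

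Within the NMBA groups, Mir31 also differed between the code letters. In CCR2-/- NMBA libraries, replicates 1 to 3 had 12.8 to 17.6 FPKM and replicates 4 to 6 had 5.99 to 7.89 FPKM, with no overlap. In WT NMBA libraries the same replicates had 8.43 to 15.6 FPKM and 7.94 to 11.4 FPKM and overlapped. Both sets of replicates, in both genotypes, stayed above every control library. In CCR2-/- NMBA libraries, summed muscle markers (5 of 5 genes, none at 0) were 1193 to 3477 FPKM in replicates 1 to 3 and 3967 to 4846 FPKM in 4 to 6. Their summed squamous markers were 7191 to 8589 FPKM and 9661 to 11444 FPKM. The part of tissue composition in this difference was not tested, and in these groups the code letter cannot be told apart from it.

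Stress keratins are the keratins of wounded and hyperproliferative epithelium, and Sprr genes code for small proline-rich proteins of the cornified envelope. Of the 4 stress keratins listed, Krt16 and Krt17 were measured, and the others were not analysed here. Krt17 had 30.9, 55 and 45.2 FPKM in WT controls and 97.2 to 377 FPKM in WT NMBA libraries (median 273 FPKM). In CCR2-/- tissue it had 32, 53.2 and 42.7 FPKM in controls and 157 to 280 FPKM under NMBA (median 224 FPKM). NMBA and control libraries did not overlap in either genotype, which held for 6.46% of all genes in WT and 6.37% in CCR2-/- tissue. Unlike Mir31, Krt17 in CCR2-/- controls 1 and 2 lay within the range of the WT controls.

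In WT tissue, 13 of 14765 genes (0.0880%) passed limma's test at an adjusted p under 0.05, all of them higher under NMBA, and 1 of the 2 stress keratins was among them. Over all genes, an unadjusted p under 0.05 was reached by 13.1% in WT, 11.4% in CCR2-/- and 6.3% in the comparison of genotypes under NMBA. Krt17 rose by 2.34 on the log2 scale (SE 0.36, limma, adjusted p = 0.016). In CCR2-/- tissue 3 genes (0.0203%) passed, and Krt17 again rose, by 2.33 (SE 0.36, limma, adjusted p = 0.0294). This count of 3 includes Mir31, which was chosen with its values known, so its place there is not read as a test. Krt16, the other stress keratin measured, had differences of 1.02 (SE 0.27) in each genotype, with limma adjusted p = 0.17 in WT and 0.249 in CCR2-/-. It passed in both genotypes with NMBA replicates 1 to 3 alone (limma, adjusted p of 0.0189 and 0.0251) and with a replicate block (0.00618 and 0.00982). The median of both keratins was 1.68 in WT and 1.67 in CCR2-/- tissue, beside -0.01 and -0.005 over all genes tested.

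Of 16 Sprr genes listed, 13 were in the table in 12 entries, and all 12 passed the filter. In WT tissue 3 of the 12 entries rose under NMBA and none fell, and 9 of 12 had an unadjusted p under 0.05, beside 13.1% of all genes. Sprr1b, a cross-linked precursor of the cornified envelope, had 6.58, 18.1 and 7.81 FPKM in WT controls and 52 to 176 FPKM in WT NMBA libraries (median 82.3 FPKM). It rose by 3.09 (SE 0.54, limma, adjusted p = 0.0452). Sprr2f rose from 2.14 ± 1.15 to 97.2 ± 77.2 FPKM, by 4.54 on the log2 scale (limma, adjusted p = 0.0132), and Sprr2g rose by 3.77 (limma, adjusted p = 0.0432). Sprr2 genes are near-identical copies, so reads may be split among them and their single values are uncertain.

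In CCR2-/- tissue none of the 12 Sprr entries passed, with 9 at an unadjusted p under 0.05, beside 11.4% of all genes. Sprr1b had 10.7, 10.2 and 19.6 FPKM in controls and 39.8 to 232 FPKM under NMBA, a difference of 3.02 (SE 0.54, limma, adjusted p = 0.0803). The groups did not overlap, which held for 6.37% of all genes in this comparison. The call was gained without CCR2-/- NMBA 4 or 5 (limma, adjusted p of 0.0208 and 0.0357). The median of the 12 entries was 1.65 in WT and 1.06 in CCR2-/- tissue. Sprr3, the most abundant of them, had a difference of 0.07 in WT and 0.15 in CCR2-/- tissue. Between the genotypes under NMBA 7 genes (0.0474%) passed, none of them a stress keratin or Sprr gene. Their medians were -0.08 and -0.06, beside 0.02 over all genes.

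Several of these calls were fragile. Krt17 lost its call in WT when WT control 1, 2 or 3 or WT NMBA 2 or 6 was left out, with adjusted p up to 0.238 (limma). Sprr2f lost it without WT control 1, 2 or 3, with adjusted p of 0.087, 0.090 and 0.088 (limma). Sprr1b and Sprr2g each lost theirs in 10 of 18 omissions, with adjusted p up to 0.293 (limma). These were WT controls 1 to 3, WT NMBA 1, 2, 3 and 6, CCR2-/- controls 2 and 3 and CCR2-/- NMBA 6. Krt17 in CCR2-/- tissue lost its call in 10 of 18 as well, with adjusted p up to 0.202 (limma). These were the CCR2-/- controls 1 to 3, CCR2-/- NMBA 1, 2, 3 and 6, WT controls 1 and 3 and WT NMBA 2.

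Over the 12 NMBA libraries, Mir31 was highest where Sprr1b and the stress keratins were high. On log2(FPKM + 1), Pearson's r with the mean of the 2 stress keratins was 0.64 and Spearman's rho was 0.62. With the mean of the 12 Sprr entries, r was 0.80 and rho was 0.76. Of single genes, Sprr1b had the highest r (0.85, rho 0.81), Krt16 had 0.72 and Krt17 had 0.54. All 12 Sprr entries had a positive r, from 0.22 (Sprr4) to 0.85, with a median of 0.66. Over all genes tested the median r was -0.03, and 0.156% of them had a higher r than Sprr1b and 8.82% a higher r than Krt17. The 12 points share genotype and code letter, so r describes these libraries and is given with no p.

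The relation was present in each genotype. For the Sprr mean r was 0.74 in the 6 WT NMBA libraries and 0.89 in the 6 CCR2-/- NMBA libraries. For the stress keratin mean it was 0.70 and 0.73. Within the code letters it was lower for most genes. For the stress keratin mean r was 0.22 over replicates 1 to 3 of both genotypes and 0.44 over replicates 4 to 6. Krt17 had 0.01 over replicates 1 to 3, while Sprr1b had 0.85 there and had 0.46 over replicates 4 to 6. Without CCR2-/- NMBA 3 and 4, the libraries farthest from the median of Mir31, r was 0.66 for the Sprr mean and 0.55 for the stress keratin mean.

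**Figure D3:**
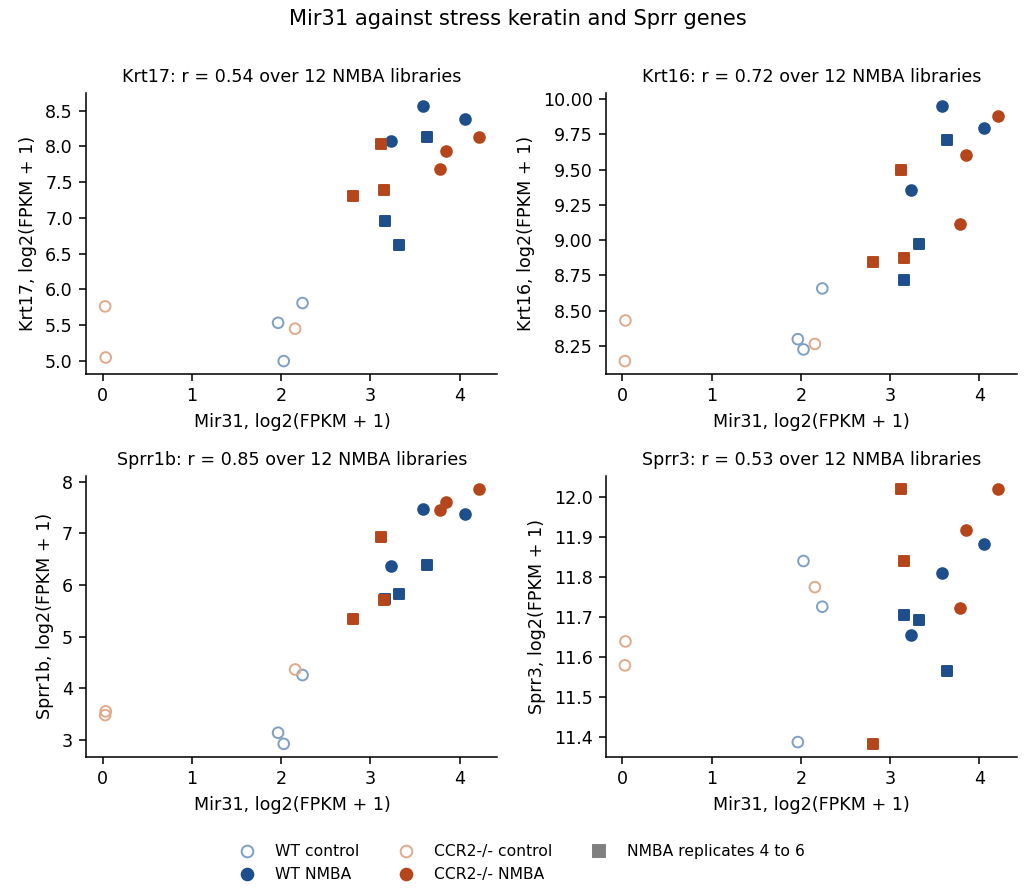
Krt17, Krt16, Sprr1b and Sprr3 (y axes) against Mir31 (x axes), all as log2(FPKM + 1), with open points for controls, filled points for NMBA libraries and squares for NMBA replicates 4 to 6. Sprr1b is higher where Mir31 is higher over the NMBA libraries (r = 0.85), and Krt17 does so less closely (r = 0.54). The 2 CCR2-/- controls at the left edge have near-zero Mir31. Their Krt17, Sprr1b and Sprr3 lie within the range of the WT controls, while Krt16 in control 2 (282 FPKM) lies below it.

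Among the 6 controls, r with Mir31 was 0.20 for the stress keratin mean and -0.04 for the Sprr mean, with single Sprr entries from -0.81 (Sprr4) to 0.80 (Sprr1a). The difference from the NMBA libraries was not tested. CCR2-/- controls 1 and 2 had near-zero Mir31 beside Krt17 of 32 and 53.2 FPKM and Sprr1b of 10.7 and 10.2 FPKM. Both genes lay within the range of the WT controls there. Sprr1a did not, at 385 and 367 FPKM against 619 to 974 FPKM in WT controls. It was also below that range in CCR2-/- control 3 (488 FPKM). Krt16 had 344 and 282 FPKM in CCR2-/- controls 1 and 2, against 298 to 403 FPKM in WT controls. A link between Mir31 and any of these genes was not tested.

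Across all 18 libraries, the 10 genes most like Mir31 by Pearson's r, among 12316 genes with an ordinary symbol, had r between 0.85 and 0.88. Those reported here were Bop1 and Rrs1, both needed for ribosome assembly, Lypd3, a surface protein of suprabasal squamous cells, Jup (plakoglobin of desmosomes), the amino acid transporter Slc7a5, Sprr1b, the signalling adaptor Fam83g, the tubulin Tubb2a and the endoplasmic reticulum protein Ckap4. The 5 most opposite were Stxbp6, Snx24, Igsf11, Grb14 and Ntf3, with r from -0.89 to -0.84. Ntf3 codes for neurotrophin-3 and Grb14 for an adaptor that dampens insulin receptor signalling.

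This list turned on the 2 near-zero controls. Jup had 72.4 and 87.5 FPKM in CCR2-/- controls 1 and 2 and 111.6 to 129.6 FPKM in the 4 other controls. Bop1 had 14.5 and 13.9 FPKM there and 15.6 to 18.4 FPKM in the 4 others. Over the 16 libraries without them, 1 of the 10 genes, Sprr1b, was still among the 10 most like Mir31, at the first place with r = 0.95. Over the 12 NMBA libraries alone none of the 10 was, and Sprr1b and Ckap4 were then at places 21 and 36. The highest r over NMBA libraries belonged to Krt12 (0.95) and Dnajb1 (0.93), genes that are named after their values were seen. Apart from Sprr1b, none of the genes named here as most like or most opposite over 18 libraries passed limma's test in any of the 3 comparisons (adjusted p from 0.178 to 0.974).

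**Figure D4:**
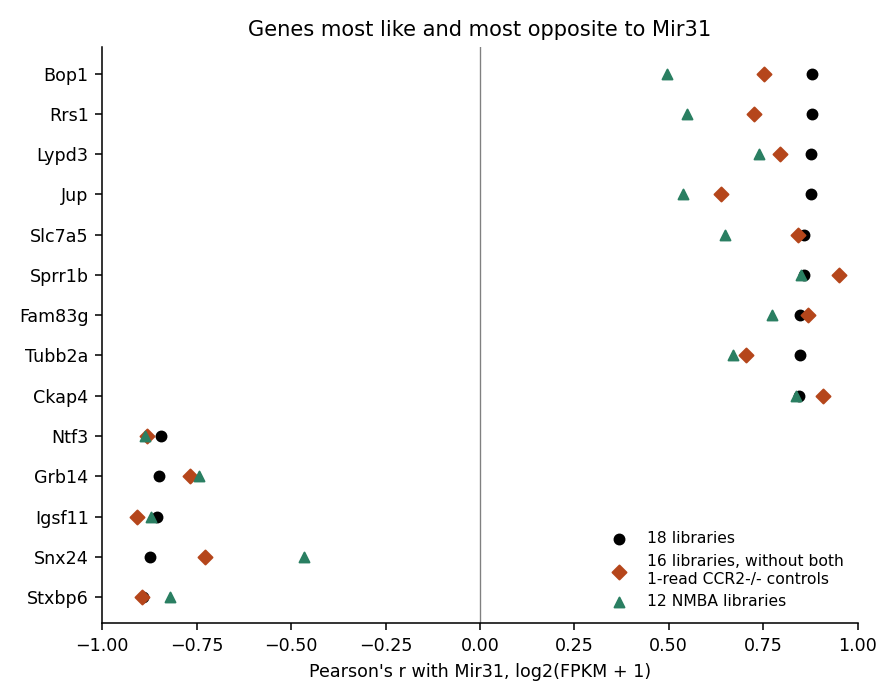
Pearson's r with Mir31 (x axis, log2(FPKM + 1)) for 9 of the 10 genes most like it and the 5 most opposite over 18 libraries (y axis), with black circles for 18 libraries, orange diamonds for 16 libraries without the 2 near-zero CCR2-/- controls and green triangles for the 12 NMBA libraries. Bop1 has r of 0.88 over 18 libraries and 0.50 over the NMBA libraries, while Sprr1b has 0.85 or above in each set.

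The proteins that make and use microRNAs did not pass the test. Of 18 listed, 16 were in the table and 14 passed the filter, and none of the 14 was called in WT or CCR2-/- tissue or between genotypes, with 0, 0 and 1 at an unadjusted p under 0.05, beside 13.1%, 11.4% and 6.3% of all genes. The median difference under NMBA was -0.14 in WT and 0.14 in CCR2-/- tissue. Ran, which powers nuclear export of the hairpin, had a difference of 0.20 (SE 0.17) in WT and 0.11 (SE 0.17) in CCR2-/- tissue. The helicase Ddx5, a Drosha partner, had -0.03 (SE 0.19) and 0.21 (SE 0.19).

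Published upstream regulators of Mir31 include NF-kappa B, STAT3, C/EBP beta, AP-1 and Polycomb proteins. Of 25 listed, 24 were in the table and 23 passed the filter. None was called in WT, CCR2-/- or the genotype comparison, with 3, 6 and 1 of 23 at an unadjusted p under 0.05, beside 13.1%, 11.4% and 6.3% of all genes. The medians under NMBA were 0.09 in WT and 0.27 in CCR2-/- tissue. Nfe2l2, the oxidative stress factor, had a difference of 0.21 (SE 0.11) in WT and 0.26 (SE 0.11) in CCR2-/- tissue. Ctnnb1, beta-catenin, had 0.05 (SE 0.08) and -0.002 (SE 0.08).

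All 13 NF-kappa B and inflammation genes listed passed the filter. In WT tissue 7 of 13 had an unadjusted p under 0.05 (limma), beside 13.1% of all genes. There 2 of 13 were called as higher under NMBA and none as lower, beside 0.0880% of all genes called. Both were alarmins of the S100 family, which keratinocytes and neutrophils make. S100a8 rose from 1.14 ± 0.467 to 279 ± 280.0 FPKM, by 6.45 (SE 0.85, limma, adjusted p = 0.00524), and S100a9 by 3.88 (SE 0.69, limma, adjusted p = 0.0465). The call of S100a8 was lost without WT control 1 or 3 (limma, adjusted p of 0.052 and 0.058). That of S100a9 was lost in 10 of 18 omissions, the same libraries as for Sprr1b, with adjusted p up to 0.293 (limma). In CCR2-/- tissue none passed, with 5 of 13 at an unadjusted p under 0.05, beside 11.4% of all genes. S100a8 had a difference of 4.89 there (SE 0.85, limma, adjusted p = 0.0803). It passed in 6 of 29 alternatives: without WT NMBA 5 or 6 or CCR2-/- NMBA 5, at a pseudocount of 0.1, with NMBA replicates 1 to 3 alone and with a replicate block (limma, lowest adjusted p 0.00847). The list's median was 0.66 in WT and 0.43 in CCR2-/- tissue. The neutrophil markers measured (4 of 5) summed to 3.53 to 4.31 FPKM in WT controls and 4.67 to 7.96 FPKM in WT NMBA libraries, and Ly6g and Mpo were under the filter. Their part in the S100 rise was not tested.

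A seed match for miR-31-5p is TCTTGCC in a message, the 7 letters that pair with the seed. These letters were searched on the sense strand in the longest annotated 3′ UTR of each coding gene, with overlapping matches counted. The sites of 4 targets known from skin and squamous cells are shown because they are where the seed would pair, with those letters in capitals. They are from GENCODE transcripts on GRCm38, each written 5′ to 3′ along its message.
Stk40 site 1, chr4:126139668-126139690: ggcacctaggagcccTCTTGCCa
Stk40 site 2, chr4:126140042-126140064: tgaagtggatgcccgTCTTGCCa
Stk40 site 3, chr4:126140347-126140369: aaaaatggggccaccTCTTGCCa
Rasa1, chr13:85216030-85216052: tcatgtctcctttgcTCTTGCCa
Lats2, chr14:57690684-57690706: gtataaaataccgtaTCTTGCCa
Ppp6c, chr2:39197227-39197249: tgctgaaatgctgccTCTTGCCt
Stk40 lies on the plus strand and the others on the minus strand. Dlx3 held no such match in its 1540-base 3′ UTR, which says only that these letters were not found there.

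Of 32 published miR-31 targets listed, 31 were in the table and 27 passed the filter, and none of the 27 was called in WT, CCR2-/- or the genotype comparison, with 6, 2 and 0 at an unadjusted p under 0.05, beside 13.1%, 11.4% and 6.3% of all genes. In WT tissue 7 of 27 had a positive difference, with a median of -0.15 beside -0.01 over all genes. In CCR2-/- tissue 14 of 27 did, with a median of 0.04.

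Stk40, a kinase-like inhibitor of NF-kappa B signalling, had 18.6, 17.1 and 17.4 FPKM in WT controls and 10.5 to 16.2 FPKM in WT NMBA libraries (median 13.2 FPKM). These groups did not overlap, which held for 6.46% of all genes in this comparison, whereas 0.0880% were called. The difference was -0.40 (SE 0.14, limma, adjusted p = 0.245). In CCR2-/- tissue Stk40 had 17.1, 15.6 and 17 FPKM in controls and 11.7 to 17.6 FPKM under NMBA, which overlapped, with a difference of -0.21 (SE 0.14, limma, adjusted p = 0.553).

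Ppp6c, a phosphatase subunit that restrains keratinocyte growth, had 8.59 ± 0.904 FPKM in WT controls and 10.4 ± 2.58 FPKM under NMBA, a difference of 0.22 (SE 0.20). Rasa1, which turns RAS off, had a difference of -0.11 (SE 0.20) in WT and -0.005 (SE 0.20) in CCR2-/- tissue. Lats2, a Hippo pathway kinase, had -0.22 (SE 0.21) and 0.20 (SE 0.21). Dlx3, a differentiation factor, had 0.02 (SE 0.14) in WT and 0.40 (SE 0.14) in CCR2-/- tissue. Their limma adjusted p lay between 0.328 and 0.993. The targets with the highest level, Ppp2r2a and Rdx, had WT differences of 0.54 (SE 0.23) and -0.13 (SE 0.16). That of Ppp2r2a was 0.12 without WT control 2 and 0.83 without WT control 1, and that of Rdx was -0.02 without WT NMBA 6 or WT control 1, -0.20 without WT control 2 and 0.01 with NMBA replicates 1 to 3 alone. In CCR2-/- controls 1 and 2, where Mir31 was near 0, Stk40 had 17.1 and 15.6 FPKM, beside 17 FPKM in replicate 3. A link between Mir31 and Stk40 was not tested.

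**Figure D5:**
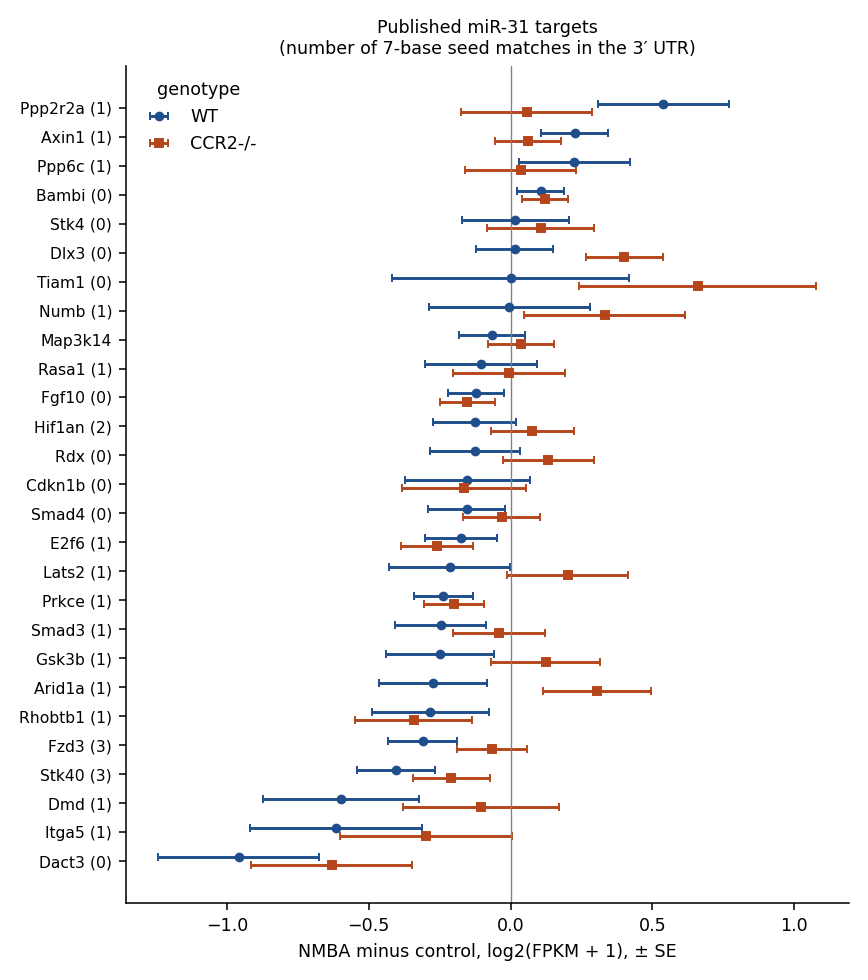
Difference under NMBA (x axis, log2(FPKM + 1), ± SE) for the 27 published targets that passed the filter (y axis), in WT (circles) and CCR2-/- tissue (squares), with the number of seed matches after each symbol where the gene had an entry of its own. WT values run from -0.96 (Dact3) to 0.54 (Ppp2r2a), and none passed the test.

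Over all genes, 1549 of 12032 with an annotated 3′ UTR (12.9%) held a miR-31-5p seed match, and 17 of the 26 published targets with a UTR did. The median difference of the 1549 genes was -0.05 in WT and 0.01 in CCR2-/- tissue, beside -0.01 and -0.005 over the 12032. Genes with 2 or more matches, 202 in number, had medians of -0.06 and 0.02. Genes with a match also had longer UTRs (median 2329 bases against 994 bases without one), and the 731 genes with a miR-31-3p match had a WT median of -0.05 as well.

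None of the neighbours of Mir31 on chromosome 4 that passed the filter was called. The nearest protein-coding gene, Ifne, lies 30.4 kb away and was at or under 0.47 FPKM. Mtap, 226.5 kb away, had 7.98 ± 0.641 FPKM in WT controls and 9.22 ± 2.02 FPKM under NMBA, a difference of 0.17 (SE 0.14). Klhl9, 188.1 kb away, had -0.12 (SE 0.14), and the tumor suppressor Cdkn2b, 395.6 kb away, had 0.06 (SE 0.18). Of 13 neighbours listed, 11 were in the table and 6 passed the filter, and Cdkn2a was under it with at most 0.53 FPKM. None of the 6 was called in any of the 3 comparisons, and none had an unadjusted p under 0.05. Over all genes, 0.0880%, 0.0203% and 0.0474% were called and 13.1%, 11.4% and 6.3% had such a p. With 6 genes, these counts do not set the neighbours apart from other genes. Their medians were 0.04 in WT and -0.07 in CCR2-/- tissue. In CCR2-/- controls 1 and 2, Mtap had 8.33 and 8.19 FPKM and Klhl9 15.3 and 16.2 FPKM, within the range of the other controls. Cdkn2b had 5.53 and 7.19 FPKM there, just below and just above the range of the other controls (6.02 to 7.14 FPKM).

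Other microRNA genes were mostly out of reach of this assay. Of 125 entries with a microRNA symbol, 50 passed the filter, of which 31 were joined to another gene and 19 stood alone. None of the other entries among these 50 was called in any of the 3 comparisons, beside 0.0880%, 0.0203% and 0.0474% of all genes. At such shares, this does not set them apart from other genes. Of the epithelial and inflammatory microRNAs listed, 7 of 30 were in the table and 3 passed the filter, and Mir205, Mir203, Mir21a and Mir17hg were not analysed here. The Mir34a entry, read together with an overlapping gene, had a difference of 0.43 (SE 0.21) in WT. The Mir24-2 entry, also read with another gene, had one of 0.96 (SE 0.52), which rested on WT control 3 at 0.324 FPKM against 10.9 and 18.3 FPKM in the other WT controls, and it was -0.21 without that library. Mir31 had the largest NMBA difference of the 19 entries that stood alone, in both genotypes, as a description of a gene that was chosen for it.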

How the data were processed

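Bulk RNA-seq values were read from 1 table of FPKM per gene and library that the authors deposited. DESeq2 and the genome builds GRCm38 and mm10 appear in the submitters' processing notes. The aligner, the counter and the annotation are not given in the sources used here. Mir31 and the gene lists were chosen with earlier results of these data known. Entries with a reference gene and at least 0.5 FPKM in 3 or more of 18 libraries were kept (14765 genes). The table joins several symbols in 1146 entries, and 0 sample columns were left unmapped. log2(FPKM + 1) was fitted over all 4 groups with limma 3.58.1 in R 4.3.3 (empirical Bayes with a mean trend), with Benjamini-Hochberg adjustment over all genes and a threshold of 0.05. Depth was recovered from the spacing of FPKM values of 10194 single-transcript genes, where 92.7 to 93.8% of low values lay within 0.02 of whole reads. Floors are 3 reads, and 95% intervals are exact and cover counting error only. The labels do not say that replicates came from separate animals, so p-values measure only the spread between these samples. Genes named were the 10 most like Mir31 and the 5 most opposite by Pearson's r, stress keratins and Sprr genes, 5 targets best known in skin, chromosome 4 neighbours and, from every other list, those that passed the test, or else its 2 most abundant genes. Of the 10, 1 gene is not reported here. Seed matches were searched in annotated transcripts. Alternatives were other pseudocounts, filters and scalings, a replicate block, each comparison's groups alone, NMBA replicates 1 to 3 or 4 to 6 alone, omission of each library and, chosen after seeing the data, omission of both near-zero controls. Fits were tested on simulated data. Other tools were Python 3.11.15, pandas 2.3.3, numpy 2.4.6, scipy 1.17.1 and matplotlib 3.10.9.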

Additional observations from a re-analysis of the deposited data

Results flagged for a closer look

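In 108 groups of 6 libraries looked at (54 genes in the NMBA groups), 8 held a library far from the other 5, and chance alone gives about 1 in 20. Mtap, a neighbour of Mir31, had 13.1 FPKM in WT NMBA replicate 1 and 7.38 to 9.38 FPKM in the others. Klhl9, another neighbour, had 11.8 FPKM in WT NMBA replicate 6 and 15.6 to 17.2 FPKM in the others. The target Rdx had 14.2 FPKM in the same library and 21.3 to 24.4 FPKM in the others, and the glandular marker Tff1 had 14643 FPKM there against 2278 to 6125 FPKM. Bop1 had 18.5 FPKM in WT NMBA replicate 5 and 20.6 to 21.0 FPKM in the others. In CCR2-/- NMBA replicate 3, the library with the highest Mir31, Slc7a5 had 21.8 FPKM against 13.9 to 16.4 FPKM, and Stxbp6 had 0.934 FPKM against 1.82 to 2.23 FPKM. The glandular marker Pgc had 40444 FPKM in CCR2-/- NMBA replicate 4 and 2057 to 16388 FPKM in the others. The groups of 3 controls, which hold both near-zero Mir31 libraries, are too small for this comparison.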

How the results depend on the processing

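Leaving out both near-zero CCR2-/- controls, chosen after seeing the data, gave Mir31 differences of 0.079 between control genotypes, -0.092 between the responses and 1.33 for NMBA in CCR2-/-, with 7 genes called in WT. At a pseudocount of 0.1 these Mir31 differences were -3.14, 3.12 and 4.77, with 26 genes called in WT, and at 0.5 the CCR2-/- response was 3.38. Omitting 1 library at a time gave Mir31 1.31 to 1.502 in WT, 2.39 to 3.45 in CCR2-/-, -0.16 to 0.12 between genotypes under NMBA, -2.05 to -0.98 between control genotypes and 0.97 to 2.03 between the responses. The same omissions gave 1 to 30 called genes in WT (1 without WT control 1 or 3, 30 without WT NMBA 5), 0 to 6 in CCR2-/- (0 without CCR2-/- control 2 or CCR2-/- NMBA 1, 2 or 3, 6 without CCR2-/- NMBA 5) and 4 to 13 between genotypes (13 without CCR2-/- NMBA 5). NMBA replicates 1 to 3 alone gave 162, 233 and 3 called genes in these comparisons, and replicates 4 to 6 alone 3, 0 and 2. Median-ratio scaling gave 1 in CCR2-/-, and fits on the groups compared alone gave 1 in CCR2-/- and 3 between genotypes. The cause of these shifts was not tested.

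Samples with the same replicate number share only a number here, with deviations that correlated at -0.40 to 0.43 over 12 pairs, 6 of them above 0.1. A replicate block gave 278 called genes in WT, 294 in CCR2-/- and 7 between genotypes, and Mir31 differences of 1.72, 3.04 and -0.01.

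For the stress keratin mean, r with Mir31 was 0.22 in NMBA replicates 1 to 3, 0.44 in 4 to 6 and 0.58 to 0.70 with 1 library omitted. For the Sprr mean it was 0.54, 0.63 and 0.74 to 0.84, and 0.66 without CCR2-/- NMBA 3 and 4. The sign of r turned for Sprr1a without those libraries (-0.047), for the joined Sprr2b and Sprr2a3 entry in replicates 1 to 3 (-0.50) and for Sprr4 in WT (-0.026). Of the 10 genes most like Mir31, 3 were shared with the 10 by Spearman's rho, 0 with those over NMBA libraries and 1 without both near-zero controls. Depth limits the near-zero libraries to an upper bound of 0.139 and 0.114 FPKM, with a model of 965 bases.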

Other observations

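No gene passed limma's test of the difference between the NMBA responses of the genotypes, with 673 of 14765 at an unadjusted p under 0.05. Within groups, Mir31 varied more than most genes, with a residual SD of 0.60 on the log2(FPKM + 1) scale against a median of 0.23, larger than in 95.9% of genes. This spread came mostly from the CCR2-/- controls (SD 1.23, n = 3), and the SD was 0.14 in WT controls (n = 3), 0.33 in WT NMBA (n = 6) and 0.54 in CCR2-/- NMBA libraries (n = 6).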
